A study of Mus musculus with 38 samples.

Results

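The genes described here are Sgk1, Sgk3, Nr3c1, Nr3c2, Fkbp5, Fkbp4, Tsc22d3 and Hsd11b1, which encode kinases, receptors, receptor partners, a target and an enzyme of the corticosteroid response. They are 8 of the 23420 genes counted in each library and were taken by gene symbol, a set put together with earlier results of these data known. RNA had been sequenced from dentate gyrus granule cells of Arc::dVenus mice, in which the promoter of the activity-regulated gene Arc drives a destabilized fluorescent protein, so that dVenus+ cells are those with recent Arc promoter activity. From each mouse, the aspirated contents of 10 dVenus+ cells were pooled into 1 library and those of 10 neighbouring dVenus- cells into another. In fear conditioned mice (FC, 12 mice) tones had been paired with foot shocks, no-shock mice (NS, 4 mice) went through the same session without shocks, and cells of both were collected 24 h later. Home-cage mice (HC, 3 mice) had no session. All 19 mice were male, carried the reporter, had been backcrossed to C57BL/6J, were housed singly and were 8 to 12 weeks old. The question of each comparison was which of these genes differed between dVenus+ and dVenus- cells of the same mouse.

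Corticosterone reaches the brain of rodents at rest and in larger amounts during stress, and it binds the mineralocorticoid receptor with high and the glucocorticoid receptor with lower affinity. The unliganded receptors are held in the cytoplasm by heat shock protein chaperones and immunophilins, and the bound receptors enter the nucleus and act at hormone response elements in DNA. Granule cells are among the neurons that carry both receptors, and SGK1, the serum- and glucocorticoid-regulated kinase, is a classical product of their activity whose gene is also induced by neuronal activity, osmotic stress and growth factors.

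The 38 libraries held between 1352288 and 18394761 counts on genes (median 8013005), and between 7037 and 13286 genes with a count. Arc separated the cell types in every group: in FC mice it ran from 477 to 1540 normalized CPM (CPM scaled by the trimmed mean of M-values) in dVenus+ and from 0 to 172 in dVenus- libraries. The granule cell markers (9 genes) had a summed level above 0 in every library, although Tdo2 was at 0 in all NS dVenus+ and all HC dVenus- libraries, and the sum was lower in dVenus+ cells of 11 of 12 FC, 4 of 4 NS and 2 of 3 HC mice. The summed markers of microglia (10 genes) were above 0 in every library as well and were higher in dVenus+ cells of 9 of 12 FC, 4 of 4 NS and 3 of 3 HC mice. FC libraries carry 3 sample ID series (2, 4 and 6 mice), while all NS and HC libraries carry a single other one, so a difference of FC from the other groups cannot be told apart from a difference between these series. Since each library pools cells, fewer cells with a transcript and less RNA per cell cannot be told apart either.

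Sgk1 was higher in dVenus+ cells of 16 of the 19 mice and had the largest positive fold change of the 8 genes in FC mice. The gene (ID 20393) lies at chr10:21882184-21999903 of GRCm38, the assembly called mm10 in the study. In FC mice its normalized CPM ran from 9.43 to 311 in dVenus+ cells (median 78.9) and from 0 to 87.1 in dVenus- cells (median 15.3), with means of 118 ± 100 and 24.6 ± 28.9 (SD, n = 12). Both cell types overlapped: 10 of 12 mice were higher in dVenus+ cells, and the exceptions were mouse 07 (29.7 against 33.5) and mouse 14 (58.2 against 87.1). Of all genes tested in FC mice, 4.74% were higher in at least 10 mice. The dVenus- libraries of mice 07 and 14 also held Arc, at 48.1 and 172 normalized CPM, as did that of mouse 06 (108). The median of Arc over the FC dVenus- libraries was 0.565. Whether this bears on the Sgk1 values was not tested.

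The log2 fold change of Sgk1 in FC mice was 3.08 (SE 0.93) by edgeR's quasi-likelihood test with the mouse as block, with p = 0.00353 and an adjusted p of 0.110. A gene is called here when its Benjamini-Hochberg adjusted p is under 0.05 and its log2 fold change exceeds 1 in size, and 1.41% of the 9709 genes tested in FC mice were called. None of the 7 genes of the corticosteroid response that passed the count filter in FC mice was among them. With the newer quasi-likelihood method of edgeR, which called 4.35% of the genes, Sgk1 was called (log2 fold change 2.70, adjusted p = 0.0199), and so it was with DESeq2 (3.12, adjusted p = 4.7031e-05), which called 16.8%. In an exact sign-flip permutation test of the 12 within-mouse differences in log2(normalized CPM + 1), two-sided, the mean difference was 2.77 ± 2.36 (SD) with p = 0.00195. Adjusted over all genes tested, that p came to 0.05003, just on the far side of the threshold, which 3.21% of the genes passed.

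In NS mice the 4 dVenus+ libraries held 16.4, 0, 12.5 and 390 normalized CPM of Sgk1 (mice 18, 19, 20 and 21), and the dVenus- libraries 0, 1.26, 0.159 and 1.68. The dVenus- libraries held 30 counts of Sgk1 in all, and 3 of 4 dVenus+ libraries lay above all of them, with mouse 21 far above the rest. Of the genes tested in NS mice, 34.1% were higher in dVenus+ cells of at least 3 mice. In edgeR the log2 fold change was 6.29 (SE 3.00, p = 0.0491, adjusted p = 0.991). Of the NS libraries, 3 dVenus+ and 1 dVenus- held 10 counts of Sgk1. It thus entered this fit mainly through dVenus+ cells, and the values are given as a description. No gene was called in NS mice (0.0%), where 4.69% had an unadjusted p under 0.05, 4 genes (0.0489%) were called by the newer method and 666 by DESeq2, Sgk1 being 1 of those (6.53, adjusted p = 0.00237).

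In HC mice the dVenus+ values were 27.4, 43.2 and 152 normalized CPM (mice 15, 16 and 17) and the dVenus- values 0, 0 and 0.0973. The cell types did not overlap, which was so, in this direction, for 9.17% of the genes tested in HC mice. Behind these values stood 1341 counts in dVenus+ and 1 count in dVenus- cells, a ratio of 1607 once scaled for depth, with a 95% interval of 288 to 63501 for counting error only. The log2 fold change in edgeR was 10.48 (SE 3.66, p = 0.00859, adjusted p = 0.984), and 0.0264% of the genes were called in HC mice. DESeq2 called Sgk1 there too (10.36, adjusted p = 0.000161) among 8.24% of the genes. Sgk1 entered the HC tests only through the dVenus+ libraries, since 3 of those and 0 of the dVenus- libraries held the 10 counts that the filter asks for, so these values are given as a description.

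With the 7 NS and HC mice in 1 fit, the log2 fold change of Sgk1 was 8.00 (SE 2.28, p = 0.00302, adjusted p = 0.302 in edgeR), and 0.0266% of the genes were called. The libraries with 10 counts of Sgk1 were 3 NS and 3 HC dVenus+ libraries and 1 NS dVenus- library. It thus entered this fit too mainly through dVenus+ cells, and its values here are a description. The newer method gave 7.38 with an adjusted p of 0.0491 and called 0.757% of the genes. Sgk1 was higher in 6 of these 7 mice, as 13.5% of the genes were, and the exact sign-flip permutation test gave a mean difference of 4.44 ± 2.84 (SD) with p = 0.0312 (adjusted p = 0.283, smallest possible p 0.0156). An unadjusted p under 0.05 in that test was reached by 4 of the 7 members tested in FC mice, beside 18.8% of the genes tested, and by 2 of the 7 tested in the NS and HC mice together, beside 13.8%. No gene passed it after adjustment in the latter (0.0%). DESeq2 called Sgk1 in these 7 mice as well (8.31), among 14.1% of the genes.

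**Figure D1:**
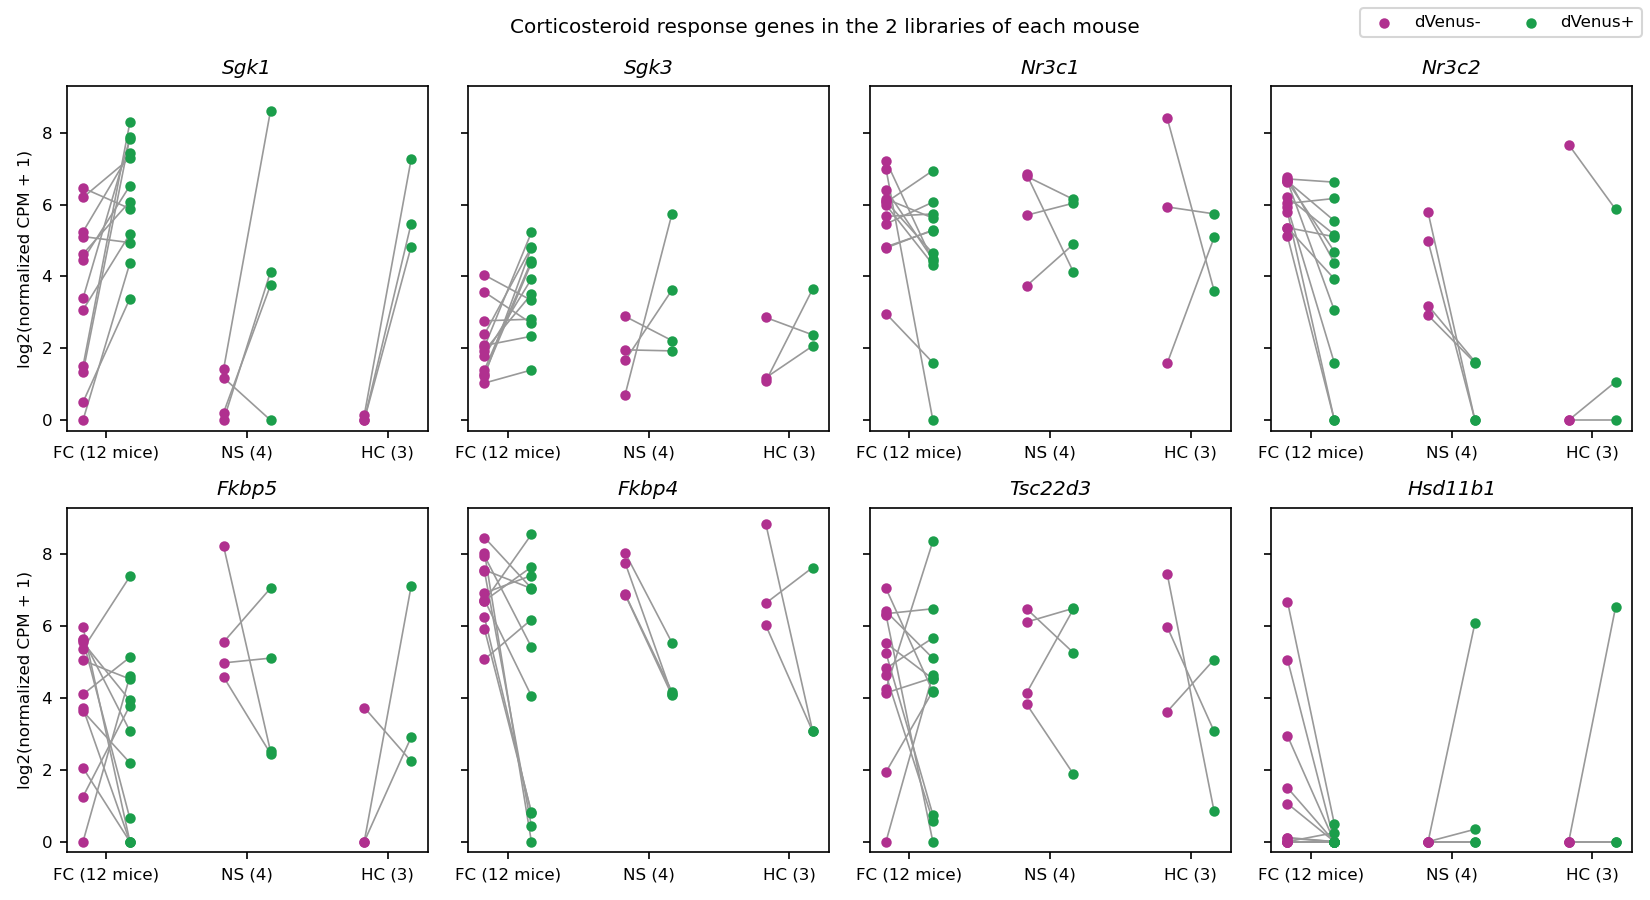
Normalized CPM, as log2(normalized CPM + 1), of the 8 genes in dVenus- (magenta) and dVenus+ (green) libraries, with a line joining the libraries of a mouse, for 12 FC, 4 NS and 3 HC mice. Sgk1 lines point up in 16 of 19 mice and Nr3c2 lines down in 16, while the lines of Tsc22d3 and Nr3c1 cross.

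The promoter sequences of these genes show where the letters of a glucocorticoid response element occur. RefSeq sequences of GRCm38.p6 gave 13 windows of the 250 bases before an annotated transcript start for 6 of the 8 genes, with none for Sgk3 and Nr3c1. The full palindrome, AGAACA followed after 3 bases of any kind by TGTTCT, was searched on both strands, as was the half-site AGAACA alone, which the palindrome contains. The full motif was found in 1 of the 13 windows, before 1 of the 6 annotated starts of Sgk1, as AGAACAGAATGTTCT at chr10:21993701-21993715, between 189 and 175 bases before the start. Over 32851 promoter windows of the same length, 3 (0.00913%) held it. The half-site was found in 4 of the 13 windows, 3 of Sgk1 and 1 of Tsc22d3, and in 16.1% of all windows. The cAMP response element TGACGTCA, searched because Sgk1 is also an activity-induced gene, was in none of the 13 and in 1.55% of all windows. The Sgk1 window with the full motif (chr10:21993640-21993889, plus strand), the Tsc22d3 window with a half-site (chrX:140600523-140600772, minus strand) and the Fkbp4 window without any match (chr6:128438657-128438906, minus strand) are shown 5′ to 3′, with the matching letters in capitals:
Sgk1: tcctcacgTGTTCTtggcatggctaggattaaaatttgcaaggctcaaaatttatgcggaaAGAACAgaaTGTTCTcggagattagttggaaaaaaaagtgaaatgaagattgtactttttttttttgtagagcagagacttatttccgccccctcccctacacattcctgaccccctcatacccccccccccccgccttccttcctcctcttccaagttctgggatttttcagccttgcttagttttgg
Tsc22d3: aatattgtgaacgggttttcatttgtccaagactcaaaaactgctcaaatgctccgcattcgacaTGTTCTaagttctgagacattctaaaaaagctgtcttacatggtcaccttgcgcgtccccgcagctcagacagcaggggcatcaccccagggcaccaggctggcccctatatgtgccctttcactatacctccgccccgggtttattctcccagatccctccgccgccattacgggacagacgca
Fkbp4: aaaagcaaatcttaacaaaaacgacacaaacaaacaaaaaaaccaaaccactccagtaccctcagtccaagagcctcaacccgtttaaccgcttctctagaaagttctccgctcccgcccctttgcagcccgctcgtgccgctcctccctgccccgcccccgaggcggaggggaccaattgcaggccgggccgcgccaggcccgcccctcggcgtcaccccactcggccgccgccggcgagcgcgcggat
In the Sgk1 window the first capitals are a further half-site on the opposite strand, 242 bases before the start, and the next 2 blocks are the arms of the palindrome. The counts were made per gene, so they do not say which of the annotated starts was used. A match gives the letters only and is no measure of binding.

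Sgk3, the relative of Sgk1 that is tethered to endosomes and is not known as a steroid-induced gene, was low but higher in dVenus+ cells of 14 of 19 mice. It lies at chr1:9798130-9902570. In FC mice it ran from 1.63 to 36.4 normalized CPM in dVenus+ cells (median 12.3) and from 1.05 to 15.4 in dVenus- cells (median 2.97). The cell types overlapped, and 10 of 12 FC mice were higher in dVenus+ cells, the exceptions being mice 01 and 03, the only mice of their sample ID series. Its log2 fold change was 1.87 (SE 0.90, adjusted p = 0.397) in edgeR and 1.93 (adjusted p = 0.0171) in DESeq2, where it was called. The exact sign-flip permutation test gave a mean difference of 1.51 ± 1.61 (SD, n = 12) with p = 0.0122 and an adjusted p of 0.127.

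For Sgk3, the dVenus+ values in NS mice were 3.64, 11.3, 52.7 and 2.80 and the dVenus- values 6.40, 2.17, 0.634 and 2.88 normalized CPM. Only 2 of the 4 mice were higher in dVenus+ cells, and mouse 20 had the widest gap. In HC mice they were 11.5, 4.18 and 3.18 against 1.11, 6.25 and 1.27, higher in 2 of 3 mice. The edgeR log2 fold changes were 1.59 (SE 2.71) in NS and 1.21 (SE 2.34) in HC mice, each smaller than its standard error.

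Nr3c2, which encodes the mineralocorticoid receptor, was lower in dVenus+ cells of 16 of the 19 mice. It lies at chr8:76898083-77245012. In FC mice its dVenus+ values ran from 0 to 97.6 normalized CPM (median 22.4) and its dVenus- values from 33.8 to 107 (median 68.7). The dVenus- libraries held a narrow band while the dVenus+ libraries spread down to 0, which was the value in 2 of them, mice 05 and 07. Of the 12 FC mice, 11 were lower in dVenus+ cells, as 4.11% of the genes tested were, and the exception was mouse 11 (71.0 against 64.4).

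For Nr3c2 in FC mice the log2 fold change was -2.26 (SE 0.88, p = 0.0181, adjusted p = 0.242) in edgeR, and it was not called by the newer method either (-1.91, adjusted p = 0.0727). In the exact sign-flip permutation test the mean difference was -2.24 ± 2.02 (SD, n = 12) with p = 0.00146, and the adjusted p of 0.0456 made it the only 1 of the 7 tested genes to pass in that test, beside 3.21% of all genes. DESeq2 called it as well (-2.23, adjusted p = 0.00388).

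Without shock, the dVenus+ libraries held 2.02, 2.08, 0 and 0 normalized CPM of Nr3c2 and the dVenus- libraries 6.56, 8.13, 30.5 and 54.0. The cell types did not overlap, as was so in this direction for 2.85% of the genes tested in NS mice, and the log2 fold change was -5.44 (SE 3.66) in edgeR. Of the NS libraries, 4 dVenus- and 1 dVenus+ held 10 counts of it, so it would have entered this fit through the dVenus- cells alone. In HC mice nearly all reads of the gene came from 1 mouse, 57.4 in dVenus+ against 202 in dVenus- cells of mouse 17, with 1.10 and 0 in dVenus+ and 0 and 0 in dVenus- libraries of the other mice. It did not pass the count filter there.

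Nr3c1, which encodes the glucocorticoid receptor, did not differ in a steady direction. It lies at chr18:39410545-39519421. In FC mice it ran from 0 to 122 normalized CPM in dVenus+ cells (median 30.8) and from 6.82 to 148 in dVenus- cells (median 64.1), lower in dVenus+ cells of 7 of 12 mice. The edgeR log2 fold change was -0.98 (SE 0.74, adjusted p = 0.647), and the exact sign-flip permutation test gave -1.19 ± 2.18 (SD, n = 12) with p = 0.0566. The NS values were 28.8, 69.7, 64.8 and 16.4 in dVenus+ and 12.3, 109, 51.1 and 114 in dVenus- cells, higher in 2 and lower in 2 mice. In HC mice they were 32.9, 11.2 and 52.5 against 2.00, 338 and 60.1, and the mouse with the largest gap (mouse 16) went the opposite way from mouse 15. The fold changes were -0.42 (SE 1.65) in NS and -0.41 (SE 2.76) in HC mice.

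The balance of both receptors was read as the difference Nr3c2 minus Nr3c1 in log2(normalized CPM + 1) within a library. In FC mice its mean was -0.68 in dVenus+ and 0.38 in dVenus- cells, a within-mouse change of -1.06 ± 2.61 (SD, n = 12; exact sign-flip permutation p = 0.190). Among NS mice it was -4.49 against -1.55, a change of -2.94 ± 1.82 that was negative in 4 of 4 mice (the exact test gave the smallest p that 4 mice allow, which is over 0.05). The NS dVenus+ libraries held 22 counts of Nr3c2 in all, and 2 of them were at 0. The value of -4.49 therefore depends on the 1 that is added before the logarithm. In HC mice it was -2.50 against -2.75. The direction was thus shared by the 4 NS mice, while FC and HC mice held both directions, and 4 and 3 mice are too few for this test to pass.

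Fkbp4, whose product FKBP52 is an HSP90 co-chaperone that helps the loaded receptor towards the nucleus, was lower in dVenus+ cells of 14 of the 19 mice. It lies at chr6:128430103-128438656. In FC mice the dVenus+ values ran from 0 to 373 normalized CPM (median 56.6) and the dVenus- values from 32.7 to 352 (median 112). A group of 4 dVenus+ libraries (mice 05, 06, 07 and 12) lay under 1 normalized CPM, below every dVenus- library, while the highest, mouse 14, was above every dVenus- library. The log2 fold change was -2.18 (SE 1.12, p = 0.0656, adjusted p = 0.444) in edgeR, with 8 of 12 mice lower, as 30.8% of the genes were. DESeq2 called it (-2.19, adjusted p = 0.0217), and the newer method did not (-1.89, adjusted p = 0.197).

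In NS mice the dVenus+ libraries held 17.0, 15.8, 45.4 and 16.1 normalized CPM of Fkbp4 and the dVenus- libraries 117, 117, 262 and 216. The cell types did not overlap, as was so in this direction for 2.85% of the genes, and all 4 mice were lower in dVenus+ cells, as 7.66% were. The log2 fold change was -2.99 (SE 1.16, p = 0.0182, adjusted p = 0.991 in edgeR), and DESeq2, which called 8.13% of the genes, called it (adjusted p = 0.0224). In HC mice the values were 7.41, 7.44 and 197 against 64.2, 461 and 98.4, lower in 2 of 3 mice. Over the 7 NS and HC mice together the log2 fold change was -3.17 (SE 0.92, p = 0.00353, adjusted p = 0.303 in edgeR), with 6 of 7 mice lower, beside 9.26% of the genes, and DESeq2 called it (-3.07, adjusted p = 0.000974). The exact sign-flip permutation test over the same mice gave -2.78 ± 2.00 (SD) with p = 0.0312 and an adjusted p of 0.283.

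Fkbp5, which encodes FKBP51, the receptor-restraining co-chaperone and a classical glucocorticoid-induced gene, did not follow Sgk1. It lies at chr17:28398753-28486149. Its FC values ran from 0 to 166 normalized CPM in dVenus+ cells (median 10.1) and from 0 to 61.9 in dVenus- cells (median 24.1), and 8 of 12 mice were lower in dVenus+ cells. Its log2 fold change in FC mice was -1.72 (SE 1.68, adjusted p = 0.755 in edgeR). Its NS values were 4.72, 4.47, 33.5 and 132 against 297, 22.9, 30.4 and 46.0, in both directions. In HC mice they were 137, 3.72 and 6.49 against 0, 12.3 and 0, higher in 2 of 3 mice, with a log2 fold change of 7.71 (SE 5.89) in edgeR that DESeq2 called (8.03, adjusted p = 0.0130). When 1 HC mouse was left out, the edgeR value ran from 2.46 to 11.65.

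Tsc22d3, which encodes the glucocorticoid-induced leucine zipper protein GILZ, was higher in dVenus+ cells of 9 and lower in 10 of the 19 mice. It lies at chrX:140539528-140600522. In FC mice it ran from 0 to 327 normalized CPM in dVenus+ cells (median 22.4) and from 0 to 131 in dVenus- cells (median 32.3), with 6 mice in each direction. In edgeR the FC log2 fold change was -0.61 (SE 1.32, adjusted p = 0.921). NS values were 88.0, 2.68, 89.2 and 37.2 against 16.6, 13.2, 68.2 and 88.2, and in HC mice 7.41, 32.5 and 0.795 against 61.8, 11.3 and 174. Both groups held mice of both directions.

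Hsd11b1, which encodes the enzyme that regenerates active corticosterone inside cells, was read in few libraries. It lies at chr1:193221640-193264045 and was at 0 in 26 of 38 libraries, so that it passed the count filter in no group's fit. In FC mice the dVenus+ libraries held 5 counts in all, with 10 of 12 at 0, while dVenus- cells reached 102 normalized CPM in mouse 09, 32.6 in mouse 07 and 6.70 in mouse 13. In NS and HC mice the reads were on the other side: mouse 21 held 67.1 and mouse 17 held 91.3 normalized CPM in dVenus+ cells, and all 7 dVenus- libraries were at 0. Against a floor of 3 counts over the dVenus- group this was at least 122-fold higher in NS (289 counts) and at least 275-fold higher in HC mice (689 counts), each resting on 1 library. In FC mice the exact sign-flip permutation test gave a mean difference of -1.39 ± 2.19 (SD, n = 12; p = 0.0391, not adjusted, since the gene was below the filter).

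**Figure D2:**
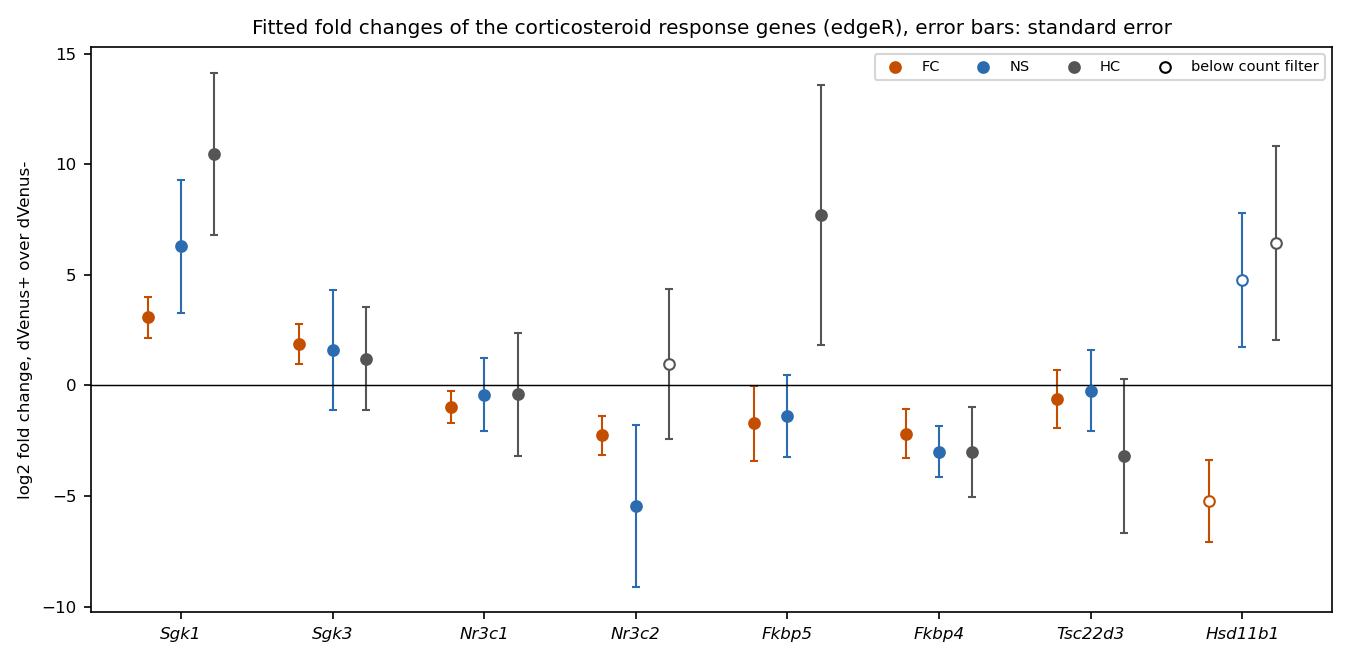
Log2 fold change of dVenus+ over dVenus- cells in edgeR (vertical axis) for each gene in mice of the FC (orange), NS (blue) and HC (grey) groups, with bars of 1 standard error and open circles for genes below the count filter. Sgk1 lies above 0 in each group (3.08, 6.29 and 10.48) and Fkbp4 below it (-2.18, -2.99 and -3.001), with bars that widen as the number of mice falls.

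Levels were compared between genes only per kilobase of annotated exon. Over all 38 libraries the mean normalized CPM per kb was 54.7 for Fkbp4, 17.5 for Tsc22d3, 15.3 for Sgk1, 8.82 for Nr3c1, 6.76 for Nr3c2, 5.37 for Fkbp5, 4.23 for Hsd11b1 and 2.22 for Sgk3. Fkbp4 exceeded Tsc22d3, its neighbour in this order, in 31 of 38 libraries. The neighbours from Tsc22d3 down to Fkbp5 were not ordered beyond their spread, since Tsc22d3 exceeded Sgk1 in 23 of 38, Sgk1 exceeded Nr3c1 in 18 and Nr3c1 exceeded Nr3c2 in 20 libraries. Hsd11b1 stood above Sgk3 only by its mean, being higher in 6 of 38 libraries. Sgk1 was the gene whose place depended most on the cell type, with 26.6 ± 28.04 per kb in dVenus+ and 3.87 ± 6.31 in dVenus- cells (SD, n = 19), while Fkbp4 held 34.2 ± 45.3 and 75.1 ± 49.98.

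**Figure D3:**
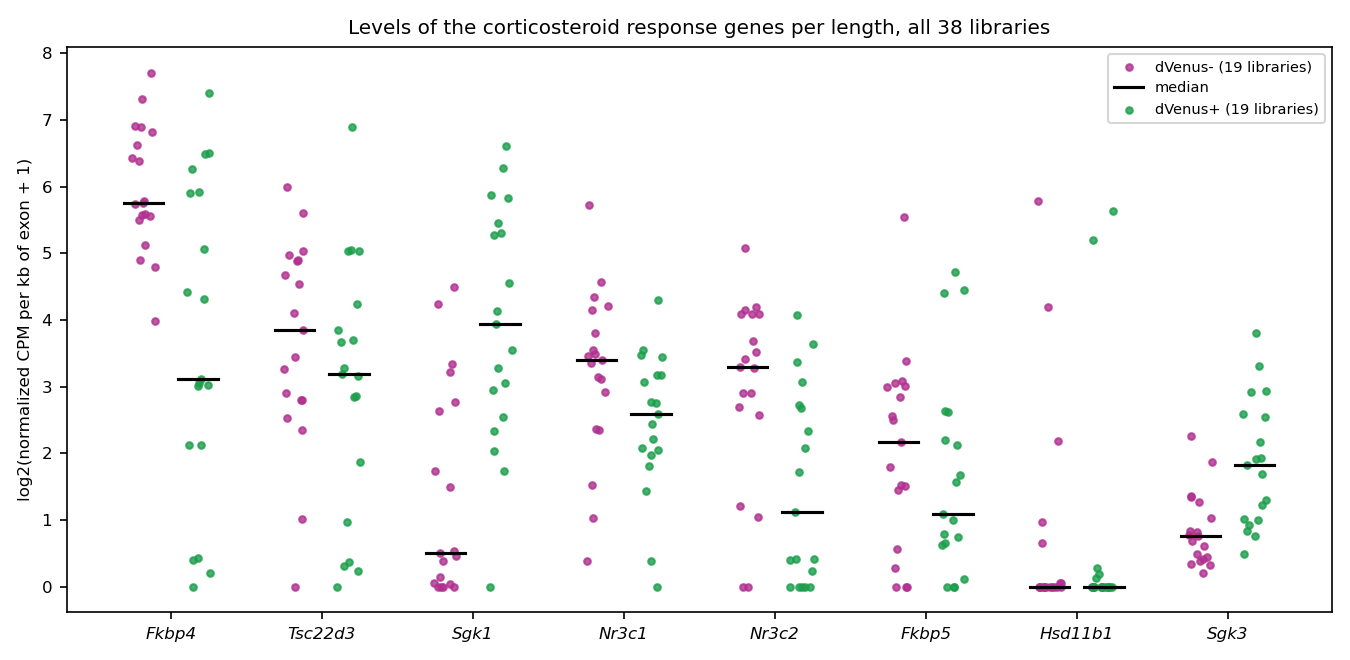
Levels per length, as log2(normalized CPM per kb of exon + 1), in dVenus- (magenta) and dVenus+ (green) libraries of all 19 mice, 1 point per library and a bar at the median, ordered by mean level. The median of Sgk1 was 0.415 normalized CPM per kb in dVenus- and 14.3 in dVenus+ cells, and that of Hsd11b1 was 0 in both.

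Whether the dVenus difference itself differed between training histories was tested as an interaction in 1 edgeR fit of all 38 libraries. None of the 14075 genes was called for FC against NS or for FC against HC (0.0% each), where 5.42% and 6.34% had an unadjusted p under 0.05, the newer method called 0 and DESeq2 called 1192 and 1583. For Sgk1, FC minus NS was -3.16 on the log2 scale (SE 2.32, adjusted p = 0.885) and FC minus HC was -7.67 (SE 2.51, p = 0.00511, adjusted p = 0.752), so the point estimate in FC mice was below those in NS and HC mice without passing the adjusted test. DESeq2, which called 8.47% and 11.2% of the genes, called Sgk1 for FC minus HC (-7.17, adjusted p = 0.00415). The values beside these are the dVenus- levels: 24.6 normalized CPM after conditioning, 0.776 without shock and 0.0324 in the home cage, against dVenus+ levels of 118, 105 and 74.3, all means. The NS dVenus+ mean rests on mouse 21 (390), the other 3 libraries being at 16.4, 0 and 12.5. The median over all genes in this fit was -0.69 for FC minus NS and -0.87 for FC minus HC. The largest interaction of the 8 genes in edgeR was that of Hsd11b1, -11.64 for FC minus NS (p = 0.00524, adjusted p = 0.876) and -13.43 for FC minus HC (adjusted p = 0.770), which rests on the few libraries named above. DESeq2 gave Hsd11b1 -4.59 and -4.73, and for FC minus HC its values for Sgk1 and Fkbp5 were larger in size. Fkbp5 had -9.56 (SE 5.23, adjusted p = 0.774) for FC minus HC, and DESeq2 called it (-9.63, adjusted p = 0.000889). The newer method gave -5.15 for it, and leaving out 1 mouse gave -13.77 to -4.29 in edgeR.

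Within the FC mice, the 3 sample ID series differed for several of the genes. The mean within-mouse difference of Sgk1, in log2(normalized CPM + 1), was 4.33, 2.14 and 2.67 in the series of 2, 4 and 6 mice, and that of Nr3c2 was -1.90, -4.07 and -1.14, so both kept their direction in each series. Sgk3 had -0.79, 2.49 and 1.61, and Fkbp4 had 0.80, -4.82 and -1.79, in both cases with the 2-mouse series against the rest. Fkbp5 and Tsc22d3 split otherwise: Fkbp5 had -4.27, -3.09 and 1.37 and Tsc22d3 had -2.52, -2.998 and 1.57, negative in the smaller series and positive in the series of 6. In an edgeR fit of the series of 6 mice alone, the log2 fold change was 1.604 for Fkbp5 and 1.94 for Tsc22d3, against -1.72 and -0.61 in all FC mice. Differences between series were not tested.

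**Figure D4:**
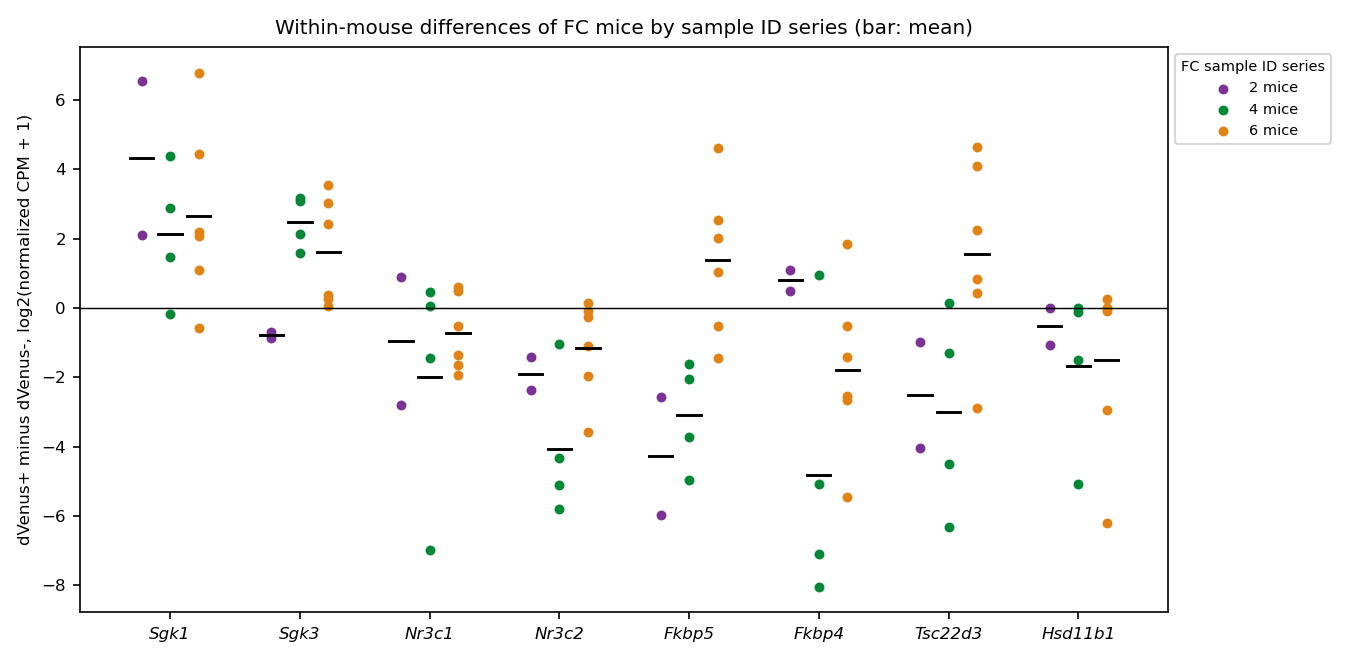
Within-mouse differences, dVenus+ minus dVenus- in log2(normalized CPM + 1), of the 12 FC mice by sample ID series (2 mice purple, 4 green, 6 orange; 1 point per mouse, bar at the mean). Sgk1 and Nr3c2 keep their side of 0 in the 3 means, while Fkbp5 and Tsc22d3 change sides in the series of 6 mice.

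The genes whose within-mouse difference was most like that of Sgk1 were sought over all 19 mice by Spearman correlation among 11262 genes, as a description. They were Fhod3 (0.729), Timm10b (0.719), Ublcp1 (0.704), Clint1 (0.695) and Gramd4 (0.694). These points share the normalization of their libraries, and none of the 6 other members that were ranked stood near the top. Hsd11b1 was read in too few libraries to be ranked. Fkbp5 had 0.184, Nr3c1 -0.00175, Nr3c2 -0.0211, Tsc22d3 -0.0333 and Fkbp4 -0.0632. Sgk3 stood at the other end with -0.458, rank 11082 of 11262, although both kinases were higher in dVenus+ cells of most mice.

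Beyond the 8 genes, 28 further genes known as corticosteroid-induced were listed, of which 18 were tested in FC mice. Of these 18, 1 was called higher, as 0.577% of all genes were (0.834% were called lower). It was Dusp1, the phosphatase that inactivates MAP kinases and that neuronal activity also induces, which held 35.6 ± 54.2 normalized CPM in dVenus+ and 4.06 ± 9.79 in dVenus- cells of FC mice (SD, n = 12), higher in 10 of 12 mice, with a log2 fold change of 7.47 (SE 1.73, adjusted p = 0.0372 in edgeR). The other 17 did not pass (the newer method called 2 of the 18), and 12 of the 18 lay below 0, with a median log2 fold change of -0.23 beside -0.21 over all genes tested. In the NS, HC and joint fits 16, 15 and 15 of the listed genes were tested and none was called by edgeR, with medians of 0.38, 0.15 and 0.55 beside 0.20, 0.11 and -0.07 over all genes. Dusp1 did not pass the count filter in these fits and was higher in dVenus+ cells of 1 of 4 NS and 1 of 3 HC mice.

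In edgeR at its defaults, 2 chaperones that fold and hold steroid receptors were called in FC mice. All 16 were tested in FC mice and 2 rose, Hsp90aa1, the inducible HSP90, and Hspa8, the constitutive HSC70, beside 0.577% of all genes called higher. Hsp90aa1 held 2149 ± 1187 normalized CPM in dVenus+ and 713 ± 295 in dVenus- cells (SD, n = 12; log2 fold change 1.57, SE 0.30, adjusted p = 0.0115 in edgeR). Hspa8 held 2433 ± 845 and 1192 ± 533 (1.17, SE 0.28, adjusted p = 0.0445). Both were higher in 11 of 12 FC mice, as 1.75% of the genes were. The list's median was 0.28, with 11 genes above and 5 below 0. In the 7 NS and HC mice together no chaperone was called, and 4 lay above and 12 below 0 (median -0.54), with Hsp90aa1 at 0.28 (SE 0.37) and Hspa8 at -0.40 (SE 0.45). Whether this differed from FC mice was not tested for the list.

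In the other lists neither quasi-likelihood method called a gene in any of these fits. Of 13 other FKBP immunophilins 6 were tested in FC mice, 5 of them below 0 (median -0.14), among them Fkbp1a at -0.12 (SE 0.24) and Fkbp8 at -0.28 (SE 0.36). In the 7 NS and HC mice 6 of 7 lay below 0 with a median of -1.26, and Fkbp1a, the FKBP12 gene, had a log2 fold change of -1.38 (SE 0.40, p = 0.00374, adjusted p = 0.303 in edgeR). Of 15 receptor coregulators 14 were tested in FC mice, 9 of them below 0 (median -0.36). The corepressor gene Ncor1 and the chromatin remodeller gene Smarca4 were at -0.21 (SE 0.29) and 0.14 (SE 0.35). Of the receptors for other steroids 3 of 4 were tested and all lay above 0 (median 0.57), with Pgr at 1.41 (SE 1.66). Of 10 steroid enzymes and transporters 2 passed the filter, Por at 0.02 (SE 0.75) and Abcb1b at 0.43 (SE 2.06).

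On the side of the SGK kinases, 13 of 16 upstream and related kinase genes were tested in FC mice, with 4 above and 9 below 0 and a median of -0.58. Pdpk1, whose product phosphorylates SGK1 in its activation loop, was at -0.65 (SE 0.57), and Wnk1 at 0.36 (SE 0.60). Of 15 SGK substrate genes 10 were tested and 9 lay below 0, with a median of -1.05 beside -0.21 over all genes, and 4 had an unadjusted p under 0.05, as 12.8% of all genes had. The ubiquitin ligase gene Nedd4 held 155 ± 99.8 normalized CPM in dVenus+ and 332 ± 153 in dVenus- cells (SD, n = 12; log2 fold change -1.18, adjusted p = 0.165 in edgeR), and its relative Nedd4l held 138 ± 110 and 249 ± 120 (-0.99, adjusted p = 0.169). Each was lower in 11 of 12 FC mice. The same list had 7 of 10 genes below 0 in NS mice (median -0.46) and 7 of 10 above 0 in HC mice (median 0.68).

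**Figure D5:**
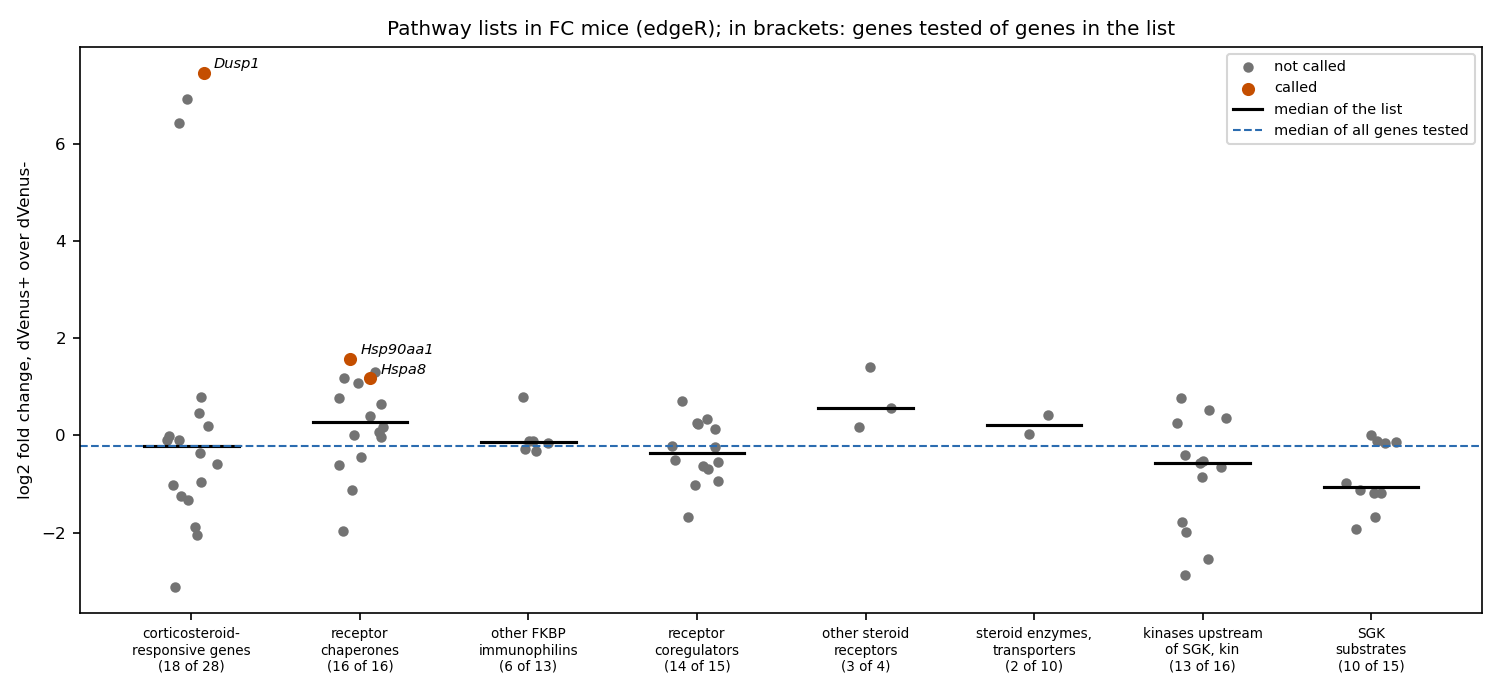
Log2 fold change of dVenus+ over dVenus- cells in FC mice (edgeR, vertical axis) for every tested gene of the 8 lists, with called genes in orange, a bar at each list's median and a dashed line at the median of all genes tested (-0.21). Dusp1, Hsp90aa1 and Hspa8 are the called genes, and 9 of 10 SGK substrate genes lie below 0.

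Markers of other cells moved with the same comparison. In FC mice the summed microglial markers ran from 24.7 to 1842 normalized CPM in dVenus+ cells (median 246) and from 1.81 to 693 in dVenus- cells (median 62.7), and 8 of 10 were tested, all above 0. Of these edgeR at its defaults called 0 (4 had an unadjusted p under 0.05) and the newer method called 3 higher. The summed granule cell markers ran from 304 to 2715 (median 962) in dVenus+ and from 1475 to 4138 (median 2401) in dVenus- cells, with 9 of 9 below 0. Calb1 was called (-3.14, adjusted p = 0.0100 in edgeR), and the newer method called 5 of the 9 lower. The summed oligodendrocyte markers were higher in dVenus+ cells of 4 of 12 FC, 2 of 4 NS and 1 of 3 HC mice. The summed astrocyte markers (7 genes) were higher in dVenus+ cells of 3 of 12 FC, 2 of 4 NS and 3 of 3 HC mice. In HC mice the astrocyte sums did not overlap, from 1563 to 1717 normalized CPM in dVenus+ and from 571 to 844 in dVenus- cells. Sgk1 and the microglial sums were also higher in dVenus+ cells of all 3 HC mice. With every mouse in 1 direction, these 3 mice cannot show whether the measures go together. The summed interneuron markers (6 genes) were higher in dVenus+ cells of 3 of 12 FC, 1 of 4 NS and 2 of 3 HC mice, with medians of 55.4 normalized CPM in dVenus+ and 139 in dVenus- cells of FC mice, where the newer method called 1 of the 3 tested lower and edgeR at its defaults 0 (1 had an unadjusted p under 0.05). The sums of endothelial and pericyte markers reached at most 31.6 normalized CPM in FC libraries, with Pecam1 at 0 in both cell types, and were higher in dVenus+ cells of 7 of 12 FC, 3 of 4 NS and 3 of 3 HC mice, reaching 52.1 in HC and 77.4 in NS libraries. The part of other cells in the fold changes was not tested.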

How the data were processed

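Counts were measured in 38 libraries, each of 10 pooled cells (SmartSeq2 cDNA, single reads, no molecular identifiers, a kit that does not mark strand). The authors aligned the reads to mm10 with TopHat2 2.0.13 and the deposited values are raw counts of uniquely aligned reads per gene, made with htseq-count 0.6.0 on NCBI transcripts. Reads that share a position with an overlapping gene (Gm46215 and Gm18511 for Sgk1, Gm6195 and Gm2352 for Sgk3, Gm10649, Gm24838 and Gm23260 for Nr3c2, and Gm22146 for Fkbp5) cannot be assigned with certainty. The 5 entries that name no gene were left out. Reads outside genes made up 16.4% to 59.7% of unique reads.

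Groups came from the sample titles. For 10 libraries of NS or HC mice the description label names a different library, and it was not used. Each group had its own fit in edgeR 4.0.16 (R 4.3.3; TMM, quasi-likelihood test at its defaults, mouse as block). A gene entered a fit if 10 or more of its reads were counted in 12 (FC), 4 (NS), 3 (HC) or 7 (NS and HC together) libraries or more, and in 3 for the interactions. The block was kept because both libraries come from 1 animal; their deviations had a median correlation of 0.0407 in FC mice. Standard errors are the fold change divided by the root of the F statistic. Genes below the filter were read from a fit without it. DESeq2 1.42.0, the newer quasi-likelihood method, other size factors, no filter, no block, series alone and leaving out each mouse were alternatives. The scripts were tested on simulated counts in which some genes had a log2 fold change of 3 in size. Of these genes edgeR at its defaults called 24.2% in the FC design and 1.6% in the NS design. It called 0% in the HC design and 8.99% with NS and HC together. A gene not called, above all in NS or HC mice, is therefore not shown to be unchanged. Named genes were the 8, genes called in FC mice or else the 2 highest of each list, the 5 most like Sgk1, and Arc. A gene that this rule names is not reported here. The genes and lists were chosen with earlier results of these data known.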

Additional observations from a re-analysis of the deposited data

Results flagged for a closer look

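Dixon's test at the 95% level was run on the NS libraries alone (8 genes in each cell type, 16 groups), since groups of 3 (HC) and of 12 (FC) were not tested, and says nothing of those. In it 5 values stood apart from the other samples of their group. The rate of 1 in 20 groups flagged by chance holds for normal and independent values. These CPM are skewed, some are at 0, and the 16 groups share 8 libraries, so the 5 are not read as an excess. Sgk1 in dVenus+ cells of mouse 21 was 390.279 normalized CPM, beside 16.4, 0 and 12.5 in the other NS mice. In the same library Hsd11b1 was 67.0718 normalized CPM, beside at most 0.269 in the others. In dVenus+ cells of mouse 20, Sgk3 was 52.6529 and Fkbp4 45.3904 normalized CPM, the highest of the 4 libraries for both. Fkbp5 was 296.998 normalized CPM in dVenus- cells of mouse 18, beside 22.9, 30.4 and 46.0 in the others.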

How the results depend on the processing

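The count of genes called in FC mice depended on the method: 137 by edgeR at its defaults, 1635 by DESeq2, 422 by the newer quasi-likelihood method, 3 and 0 in the series of 4 and of 6 mice alone, 49 without mice 03 and 05, and 56 to 118 when 1 mouse was left out (66 without mouse 01, 56 without mouse 03, 90 without mouse 06 and 79 without mouse 12). The newer method and the fit without mice 03 and 05, whose dVenus+ libraries had the fewest aligned reads, were chosen after seeing the data. In NS mice the count of 0 became 666 with DESeq2, 4 with the newer method, 1 with DESeq2 size factors, 13 without a filter and 0 to 12 when 1 mouse was left out (5 without mouse 18, 12 without mouse 19, 10 without mouse 21). In HC mice the 2 called became 625, 0, 0, 5 and 2 to 3 under the same settings, and in NS and HC together the 2 called became 1065 with DESeq2, 57 with the newer method, 10 without a filter and 0 to 3 when 1 mouse was left out. The interactions had 1192 and 1583 calls with DESeq2.

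Sgk1 kept its positive direction under every alternative run. In FC mice it was called by DESeq2 (3.12) and the newer method (2.70) and not otherwise, with 2.66 to 3.44 when 1 mouse was left out (adjusted p 0.0894 to 0.210) and 2.28 without mice 03 and 05. It was called by DESeq2 in NS (6.53), in HC (10.36) and in both together (8.31), where the newer method gave 7.38 and leaving out 1 mouse 7.48 to 8.95. Since it passed the filter only through dVenus+ libraries in HC and mainly through them in NS and the joint fit, these calls are a description. Without the mouse as a replicate block Sgk1 was 2.30 in FC mice (adjusted p = 0.152), Tsc22d3 reversed to 0.17 in FC and 0.23 in NS mice, Nr3c2 to -1.96 in HC mice, Hsd11b1 was called in FC mice (-7.62, adjusted p = 0.0271), and HC mice had 0 calls. The FC fold changes of other genes shrank without the block. Fkbp4 went from -2.18 to -0.66, Fkbp5 from -1.72 to -0.18 and Nr3c2 from -2.26 to -1.30.

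Directions reversed for the following. In the series of 6 mice Fkbp5 had 1.604 and Tsc22d3 1.94. The newer method gave 0.039 for Tsc22d3 in NS mice, -1.27 for Nr3c2 in HC mice and 0.27 for Fkbp5 in FC minus NS. Leaving out 1 mouse gave -0.995 to 0.264 (Nr3c1) and -1.04 to 0.57 (Tsc22d3) in NS mice, -2.67 to 1.76 (Nr3c1) and -1.76 to 4.84 (Nr3c2) in HC mice, and -1.18 to 0.17 (Nr3c1) and -0.87 to 1.34 (Fkbp5) in both together. For FC minus NS it gave -0.87 to 1.38 (Sgk3), -1.30 to 0.00072 (Nr3c1), -1.58 to 0.85 (Fkbp5) and -1.16 to 0.39 (Tsc22d3), and for FC minus HC -0.51 to 1.46 (Sgk3), -2.90 to 1.54 (Nr3c1) and -1.17 to 2.32 (Fkbp4). In the sign-flip test, 5 of the 8 genes, Hsd11b1 included, had an unadjusted p under 0.05 in FC mice (3 to 6 when 1 mouse was left out) and 2 in NS and HC together (0 to 1). The mean difference of Nr3c1 in NS and HC mice ran from -1.14 to 0.24 and that of Fkbp5 from -0.80 to 1.34, with -0.032 at a pseudocount of 10. The cause of these changes was not tested. The fit of Hsd11b1 in HC mice without mouse 17 could not be made, since its other libraries were at 0. With 3 and 4 mice in HC and NS, no single exact test could pass 0.05.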
